A study of Mus musculus with 6 samples.

Results

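The miR-221 and miR-222 microRNAs (miRNAs) were followed through both arms of their hairpins. They were found by name, as mmu-miR-221-3p, mmu-miR-221-5p, mmu-miR-222-3p and mmu-miR-222-5p, and are 4 of the 1109 entries of a table of small RNA reads; the species prefix is left out from here on. The cells were RAW 264.7, a macrophage-like line from a male mouse, in 3 libraries of untreated cells (control) and 3 libraries of cells exposed for 48 h to ox-LDL, the oxidized lipoprotein that fills foam cells (oxLDL). Whether replicates are separate cultures is not in the labels, so a p-value here speaks of the spread among these libraries, which may be technical. The sample labels give no culture time for the controls, whose columns of counts are headed RAW0h. If that heading is a time, ox-LDL and 48 h in culture cannot be told apart in this comparison. All libraries came from whole cultures, so fewer cells with a miRNA and less of it per cell cannot be told apart.

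Mir221 and Mir222 are neighbouring X-linked hairpins thought to be cut from a common primary transcript. Drosha and Dicer release a duplex from each hairpin, and the 3p arm is the one mostly kept in Argonaute, where its seed near the 5′ end pairs with target mRNAs. The pair is known for repressing the cell cycle inhibitor p27 (Cdkn1b) and the receptor Kit, for roles in endothelium and vascular smooth muscle, and in macrophages for a part in tolerance to repeated endotoxin.

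The mature sequences are shown because the 2 main arms share a seed while the rest of their letters tell their reads apart. They are from RefSeq (GRCm38.p6), which held 3 of the 4, with bases 2 to 8 in capitals.
miR-221-3p: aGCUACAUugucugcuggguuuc
miR-222-3p: aGCUACAUcuggcuacugggucu
miR-221-5p: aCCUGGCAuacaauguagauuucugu
The 3p arms were identical over their first 8 bases and differed at 12 of 23 positions. No other mature miRNA in the RefSeq table shared the seed of miR-221-5p, and 1 other, miR-1928, shared that of the 3p arms but had no entry among the counted miRNAs.

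The hairpins are shown with the annotated mature arms in capitals. Mir221 lies at chrX:19146294-19146388 and Mir222 at chrX:19146893-19146971, both on the minus strand, so that Mir222 is upstream, with 504 bases between them.
Mir221: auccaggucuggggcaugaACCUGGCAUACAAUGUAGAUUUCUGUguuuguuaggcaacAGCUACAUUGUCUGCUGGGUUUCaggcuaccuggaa
Mir222: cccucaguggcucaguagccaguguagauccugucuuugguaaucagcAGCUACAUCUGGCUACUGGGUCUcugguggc
No other annotated miRNA hairpin lay within 50 kb. Overlap with genes of other kinds was not looked up.

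The described targets show what the shared seed can pair with. No mRNA was measured here, so these sites are a description of the genome and not of a response. Of 7 genes described as targets, 6 held the 7-base match to bases 2 to 8 (ATGTAGC, sense strand) in their longest annotated 3′ UTR, against 9.46% of 21024 mouse genes. The match followed by an A, which is the 8-base site, was in 5 of the 7 (Bbc3, Cdkn1b, Cdkn1c, Ets1 and Kit) against 3.50% of all genes. The genes were picked because targeting had been described for them, so this difference is not independent evidence. Nor were the shares over all genes matched for 3′ UTR length, which ran from 688 to 3604 bases in the 7, and a longer one has more places for a match. No such match was found in the 3′ UTR of Smarca4. The sites of 2 cell cycle inhibitors and of Kit are printed with the seed match in capitals, in GRCm38 coordinates.
Cdkn1b (chr6:134924409-134924438, plus strand): catctgcctctaaaagcattggATGTAGCA
Cdkn1c (chr7:143458925-143458954, minus strand): cttcggctgggacctttcgttcATGTAGCA
Kit, first site (chr5:75654970-75654999, plus strand): catccttaatgatgggagatatATGTAGCA
Kit, second site (chr5:75656501-75656530, plus strand): ggctttttttgtaaatattgaaATGTAGCA

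The libraries held between 5502826 and 7373185 miRNA reads. Levels are given in CPM, the reads of an entry relative to its library after TMM scaling. Macrophage and myeloid markers were present in every library, with all 6 of the list detected. Their summed level was 168049 to 186604 CPM in control and 183450 to 206582 CPM in oxLDL. The largest members were miR-21a-5p (means of 98668 CPM in control and 109115 CPM in oxLDL) and miR-142a-5p (67344 CPM over all libraries). Of these, miR-21a-5p is also on the vascular list below. The lowest member, miR-223-3p, had a mean of 91.2 CPM over all libraries. Control replicate 2 held the most reads of the erythroid, liver and muscle lists, for example 276.9 CPM over 4 of 4 erythroid and serum markers against 82.5 and 92.0 CPM in the other controls. The endothelial pair miR-126a-3p and miR-126a-5p, both detected, summed to 276.9 to 478.2 CPM in control and 104.2 to 268.8 CPM in oxLDL. The fibroblast and smooth muscle list summed to 3578 to 5694 CPM in control and 2338 to 5127 CPM in oxLDL. Its member miR-145a-5p had no reads in at least 1 library. Both lists are named because miR-221 and miR-222 are linked with endothelium and vascular smooth muscle. The part of these lists in the results below was not tested.

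The comparison of oxLDL with control asked how the pair differs in ox-LDL-treated macrophages. Both arms of miR-222 fell steeply, the main arm of miR-221 was slightly lower, and the minor arm of miR-221 did not pass the test. The difference between the 2 hairpins is tested further on. All 4 arms had enough reads to be tested among 475 entries. By edgeR's quasi-likelihood test, adjusted over those entries after Benjamini and Hochberg, 3 of the 4 arms were lower at an adjusted p under 0.05. Over all tested entries 45.7% passed, and 24.0% passed as lower, so that a call alone does not set an entry apart.

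The 3p arm of miR-222, its abundant arm, stood at 33370, 31817 and 25013 CPM in control replicates 1, 2 and 3. In oxLDL replicates 1, 2 and 3 it stood at 9408, 13148 and 13252 CPM. The groups did not overlap: every oxLDL library lay far below the lowest control, replicate 3. The mean went from 30067 ± 4445 to 11936 ± 2190 CPM (SD, n = 3 libraries), a log2 fold change of -1.33 (SE 0.168, 95% interval -1.72 to -0.95, edgeR adjusted p = 0.000505), or 2.52 times lower. It was the fourth lowest log2 fold change among the 78 entries with a mean of at least 1000 CPM, and rank 55 from the lowest among all 475.

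The 5p arm of miR-222, the minor arm, stood at 346.9, 270.5 and 321.9 CPM in control replicates 1, 2 and 3. It stood at 68.7, 92.4 and 93.1 CPM in oxLDL replicates 1, 2 and 3. Its libraries too fell into separate groups, and oxLDL replicate 1 was the lowest for both arms. The log2 fold change was -1.88 (SE 0.177, 95% interval -2.29 to -1.47, edgeR adjusted p = 0.000137), or 3.69 times lower, rank 26 from the lowest of 475. The smallest of its counts was 369 reads, with an exact Poisson 95% interval of 332.3 to 408.6 reads, which covers counting error only, so counting error was small beside the difference.

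The 3p arm of miR-221, which carries the same seed, stood at 19904, 19226 and 15826 CPM in control replicates 1, 2 and 3 and at 14479, 14175 and 15162 CPM in oxLDL replicates 1, 2 and 3. The groups were adjacent without overlap, since the lowest control, replicate 3, was close above the highest oxLDL library. Groups did not overlap for 59.4% of tested entries, and for 31.2% with oxLDL lower. The log2 fold change was -0.33 (SE 0.108, 95% interval -0.58 to -0.08, edgeR adjusted p = 0.0389). This call depended on the scaling and on single libraries. It did not pass with RLE factors (edgeR adjusted p = 0.0550), DESeq2 (0.163) or median centring (0.170), nor without control replicate 1 (0.115) or 2 (0.0784) or without oxLDL replicate 1 (0.0681), 2 (0.117) or 3 (0.0756). Over all tested entries the median was -0.13, whereas over the 76 other entries with a mean of at least 1000 CPM it was 0.22. The small value of miR-221-3p is to be read against both, which differ in sign. With library totals the median over all tested entries was -0.28 and miR-221-3p stood at -0.48 (edgeR adjusted p = 0.00367).

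The 5p arm of miR-221 stood at 655.0, 737.9 and 433.8 CPM in control replicates 1, 2 and 3 and at 893.7, 531.3 and 498.0 CPM in oxLDL replicates 1, 2 and 3. The groups overlapped, and oxLDL replicate 1 was the highest of all 6 libraries for this arm while it was the lowest for both arms of miR-222. The log2 fold change was 0.07 (SE 0.273, 95% interval -0.56 to 0.70, edgeR adjusted p = 0.841), an interval that leaves room for a change of either sign. The sign turned with library totals (-0.063), with a filter at 10 CPM (-0.035), without control replicate 3 (-0.16) and without oxLDL replicate 1 (-0.27).

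**Figure D1:**
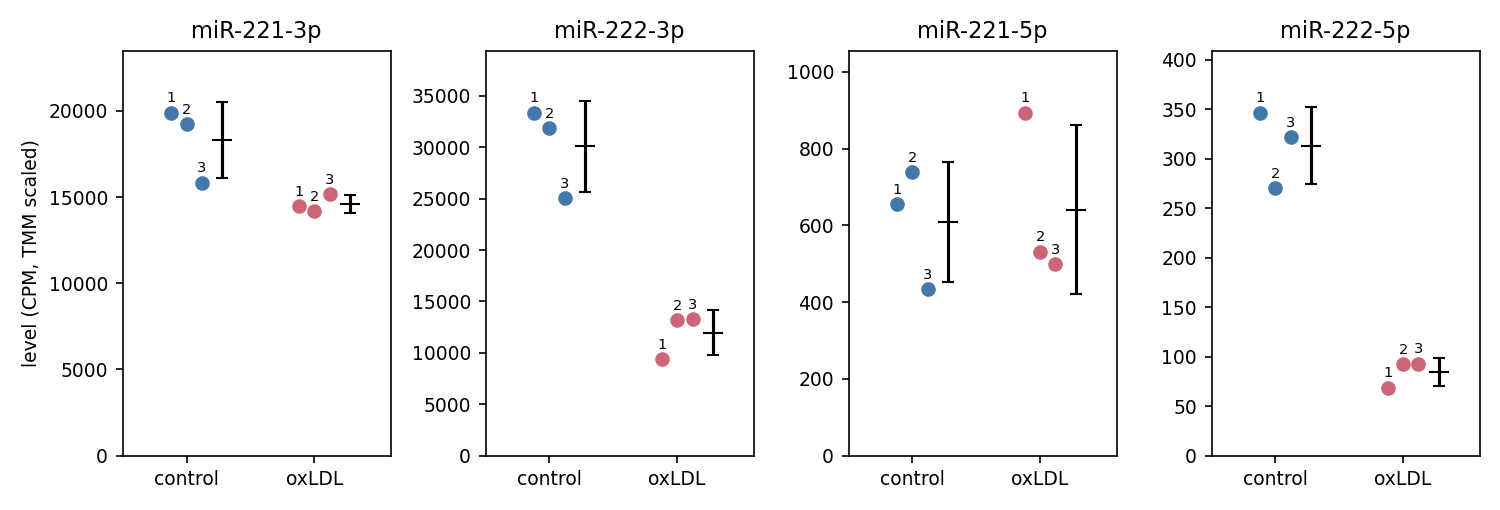
Level of each arm in CPM after TMM scaling (vertical axes start at 0, a different scale in each panel) for the 3 control and 3 oxLDL libraries, numbered by replicate, with the mean and SD beside the points. The oxLDL libraries of miR-222-3p (9408 to 13252 CPM) and miR-222-5p (68.7 to 93.1 CPM) lie well below the controls, those of miR-221-3p just below, and those of miR-221-5p overlap them.

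**Figure D2:**
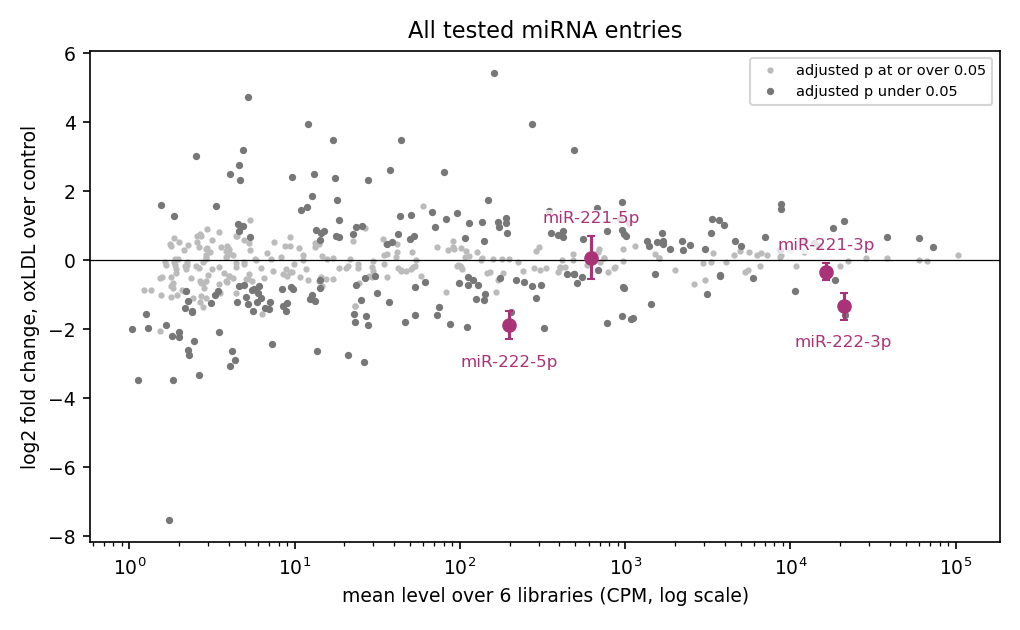
Log2 fold change of oxLDL over control for the 475 tested entries against their mean level (log axis), with the 4 arms of miR-221 and miR-222 and their 95% intervals in purple. Among entries with at least 1000 CPM, miR-222-3p (-1.33) lies near the lower edge and miR-221-3p (-0.33) in the main band, as does miR-221-5p (0.07) among entries of lower level.

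A ratio within a library needs no scaling between libraries, so the hairpins were also compared with each other in each library. There were 0.596, 0.604 and 0.633 reads of miR-221-3p per read of miR-222-3p in control replicates 1, 2 and 3. In oxLDL replicates 1, 2 and 3 there were 1.54, 1.08 and 1.14. All 3 control libraries thus had fewer reads of miR-221-3p than of miR-222-3p, and all 3 oxLDL libraries had more. Adaptors do not join all RNA ends equally well, so these are ratios of reads and not of molecules. The mean log2 ratio was higher by 1.02 in oxLDL, and the exact two-sided permutation test over libraries gave p = 0.1 (adjusted over 2 ratios 0.1), the smallest p that 3 against 3 libraries allow.

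The 5p arms gave values in the same direction. There were 1.89, 2.73 and 1.35 reads of miR-221-5p per read of miR-222-5p in control replicates 1, 2 and 3, and 13.0, 5.74 and 5.34 in oxLDL replicates 1, 2 and 3. The mean log2 ratio was higher by 1.95, again with no overlap and an exact permutation p = 0.1, the smallest the design allows. In oxLDL replicate 1 both ratios were the highest of the 6 libraries.

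**Figure D3:**
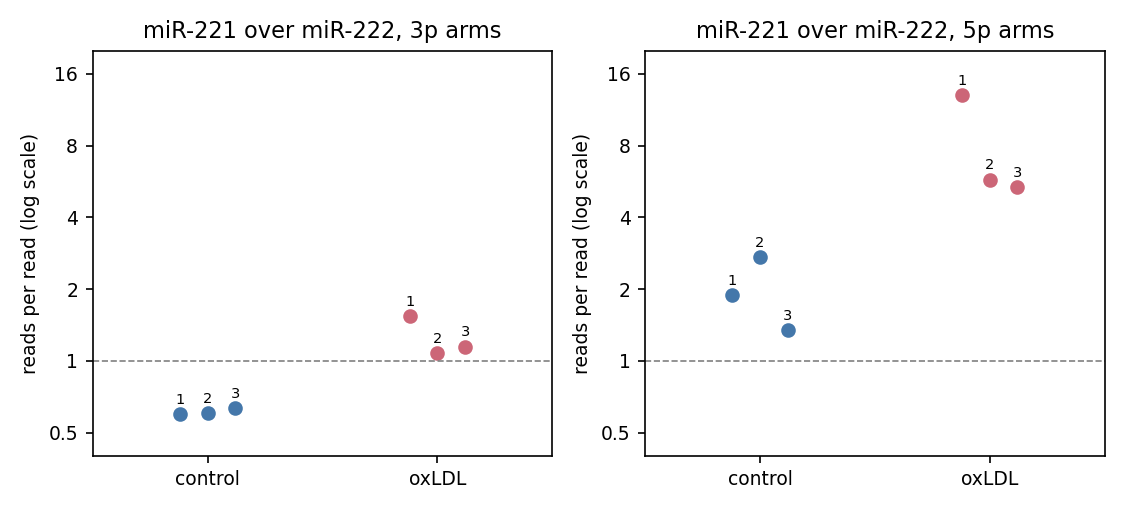
Reads of a miR-221 arm per read of the same arm of miR-222 in each library (log axis, numbered by replicate, dashed line at equal reads). For the 3p arms the controls lie at 0.596 to 0.633 and the oxLDL libraries at 1.08 to 1.54, on either side of the line, and for the 5p arms all oxLDL libraries lie above the controls.

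To set this against other clusters, reads of the downstream hairpin were divided by those of the upstream one for pairs of neighbouring hairpins within 10 kb on a strand, and the change was tested with limma over 46 pairs. Each hairpin was represented by its most read tested arm among entries that the RefSeq annotation assigned to that hairpin alone, such as let-7a-5p for Mirlet7a-1. Arms that it assigned to several hairpins, such as miR-92a-3p, miR-24-3p and let-7f-5p, were left out, so that some hairpins were represented by their minor arm. This test was chosen after the values were seen. The ratio of miR-221-3p to miR-222-3p changed by 1.02 (SE 0.181, 95% interval 0.59 to 1.45, limma adjusted p = 0.00330) and passed without any single library (limma adjusted p from 0.00383 to 0.0140). Of the 46 pairs 41.3% passed, and the change was the twelfth in size, a share and a rank that rest on this choice of arms. The pair miR-92a-1-5p over miR-20a-5p, for example, sets a minor arm against a main one. Both miR-221-3p and miR-222-3p are main arms with a common seed, but main arms also made up some pairs with larger changes. Among these were miR-449a-5p over miR-449c-5p (2.03, limma adjusted p = 5.54e-05), at mean levels of only 14.0 and 13.6 CPM. Another was miR-125a-5p over let-7e-5p (-1.20, limma adjusted p = 0.00137).

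**Figure D4:**
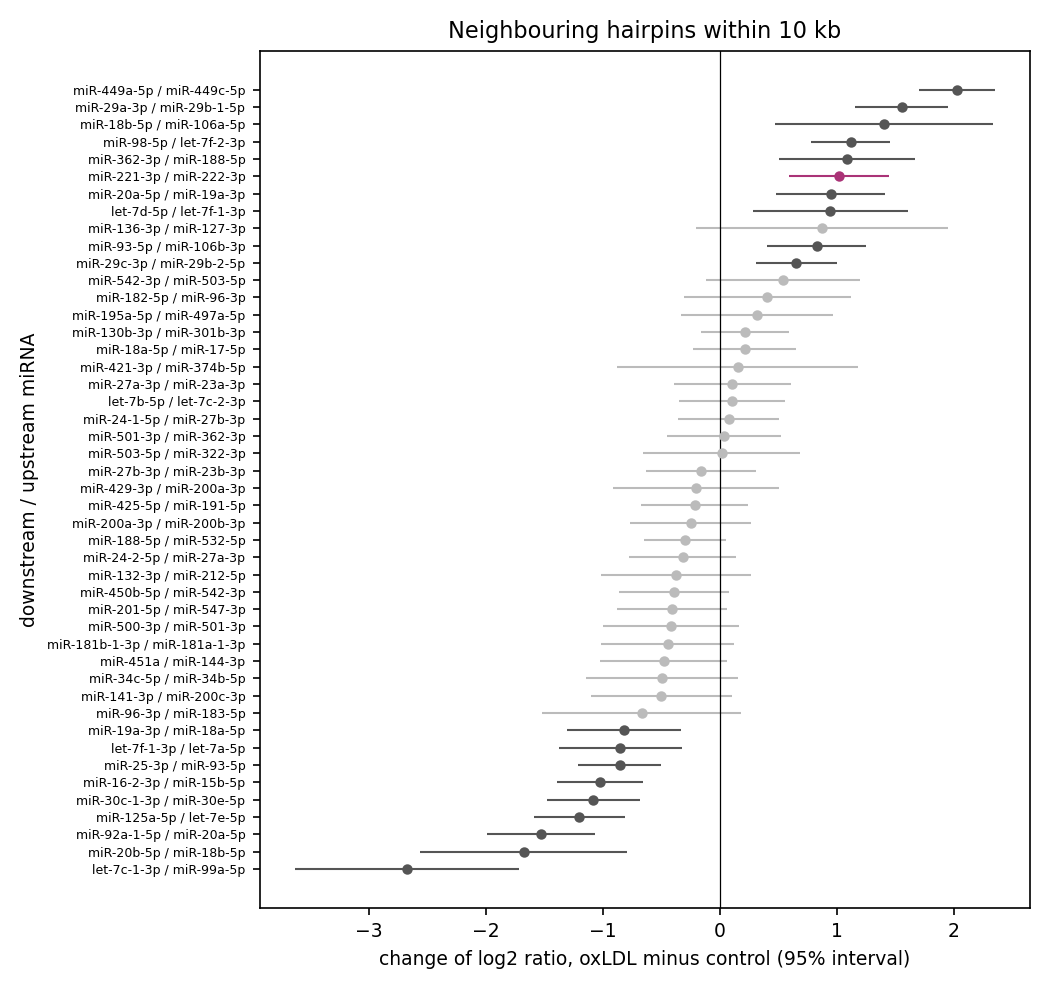
Change of the log2 ratio of downstream over upstream miRNA between oxLDL and control, with 95% intervals, for 46 pairs of neighbouring hairpins ordered by size. Dark grey marks pairs with a limma adjusted p under 0.05 and purple the pair miR-221-3p over miR-222-3p (1.02).

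Since the 3p arms share a seed, their reads were also added. The sum was 53274, 51043 and 40839 CPM in control replicates 1, 2 and 3 and 23887, 27322 and 28414 CPM in oxLDL replicates 1, 2 and 3. The groups did not overlap, and the mean was 1.82 times lower in oxLDL (48385 ± 6630 against 26541 ± 2362 CPM, SD, n = 3, exact two-sided permutation p = 0.1, the smallest possible). In control, miR-222-3p was 62.1% ± 0.731 of this sum, and in oxLDL 44.7% ± 4.67. All 4 arms together took 5.38%, 5.52% and 4.64% of the miRNA reads in control replicates 1, 2 and 3 and 2.42%, 2.59% and 2.73% in oxLDL. Of all entries, miR-222-3p had the second largest loss of read share, which fell by 2.03 percentage points, after miR-92a-3p, whose share fell by 2.35, and miR-221-3p had the sixth, a share that fell by 0.540 points. By reads miR-222-3p ranked 8, 8 and 11 among all entries in the controls and 27, 21 and 20 in oxLDL, while miR-221-3p went from ranks 15 to 16 to ranks 17 to 20.

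The balance of arms within each hairpin was tested next, as log2 of 5p over 3p reads with limma over 124 hairpins. In the miR-222 hairpin the 5p arm made up 1.03%, 0.843% and 1.27% of reads in control replicates 1, 2 and 3 and 0.725%, 0.698% and 0.698% in oxLDL. The oxLDL libraries were all lower and close to each other, but the change of -0.55 (SE 0.209, 95% interval -1.04 to -0.07) did not pass after adjustment (limma adjusted p = 0.0684). It came just under the threshold with at least 50 reads in both arms (limma adjusted p = 0.0495) and without control replicate 2 (0.0452). In the miR-221 hairpin the 5p arm made up 3.19%, 3.70% and 2.67% in control and 5.81%, 3.61% and 3.18% in oxLDL, with oxLDL replicate 1 standing above the other libraries. That change, 0.38 (SE 0.280, 95% interval -0.27 to 1.03, limma adjusted p = 0.306), did not pass either, and without oxLDL replicate 1 it was 0.11. Over all 124 hairpins 39.5% passed, 17.7% with a lower 5p share in oxLDL, and the largest changes among them were those of miR-712 (-3.72), miR-505 (3.13) and miR-210 (-2.82).

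The arms were then set beside the same kind of arm of other hairpins. Outside miR-221 and miR-222, of 122 tested arms with fewer reads than their partner 16 passed as higher and 36 as lower, with a median log2 fold change of -0.23. Of the 122 tested partners with more reads 46 passed as higher and 17 as lower, with a median of 0.17. The fall of miR-222-5p was thus in the direction of its class. The fall of miR-222-3p and the small negative value of miR-221-3p (-0.33) were against the median of theirs.

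The entries most like each arm over the 6 libraries were taken by Pearson correlation of log2 CPM among 295 entries with at least 10 CPM. All such values rest mainly on the difference between 2 groups of 3 and share libraries and scaling. For miR-222-3p they were miR-351-5p (r = 0.993, log2 fold change -1.71), miR-361-3p (0.989, -0.72) and miR-125a-5p (0.988, -0.89). For miR-222-5p they were miR-374c-3p (r = 0.996, log2 fold change -1.88), miR-8115 (0.993, -1.55) and miR-128-1-5p (0.993, -2.74). For miR-221-3p they were miR-139-3p (r = 0.972), miR-340-3p (0.962) and miR-421-5p (0.958). For miR-221-5p the closest, miR-30e-5p, reached only r = 0.841.

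Other miRNAs of the same settings were counted from lists without the 4 arms, beside 21.7% higher and 24.0% lower over all tested entries and a median log2 fold change of -0.13. Of 5 listed as repressing Cdkn1b, 4 were tested, 1 rose and 2 fell (median -0.78). Here miR-148a-3p fell from 1206 ± 338 to 339.4 ± 159 CPM, miR-181a-5p rose from 12800 ± 1154 to 16973 ± 1889 CPM, miR-24-3p was at 4487 and 5373 CPM without passing, and miR-196a-5p fell at 2.07 and 0.167 CPM. Of 4 listed as repressing Kit, 3 were tested and 1 fell, miR-193b-3p at 12.9 and 4.74 CPM, while miR-193a-3p (log2 fold change 0.25) and miR-34a-5p (0.01) did not pass. These lists of repressors therefore held members that moved in opposite directions or not past the test.

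Of 12 miRNAs linked with endothelium and vascular smooth muscle, 8 were tested, 1 rose and 3 fell (median -0.59). The miR-17-92 member miR-92a-3p fell from 32017 ± 3319 to 10773 ± 282 CPM, a log2 fold change of -1.57 beside -1.33 for miR-222-3p. The Hox-cluster miRNA miR-10a-5p rose from 29371 ± 3229 to 47229 ± 1274 CPM, while its relative miR-10b-5p fell from 1690 ± 463 to 530.0 ± 397 CPM. The endothelial miR-126a-3p fell from 392.6 ± 105 to 184.1 ± 82.3 CPM, and miR-21a-5p, miR-143-3p, miR-100-5p and miR-145a-3p did not pass.

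Of 16 tested miRNAs linked with Toll-like receptor responses and endotoxin tolerance, 3 rose and 3 fell (median -0.11). The inducible feedback miRNA miR-146a-5p rose 2.82 times, and miR-125a-5p (log2 fold change -0.89) and miR-155-5p (-0.64) fell. Of 74 X-linked entries other than the 4 arms, 41 were tested, 15 rose and 5 fell (median 0.25). Among these miR-547-3p (log2 fold change 2.32) and miR-652-3p (1.21) rose and miR-374c-3p (-1.88) fell, so the fall of miR-222 was opposite in sign to the median X-linked entry.

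**Figure D5:**
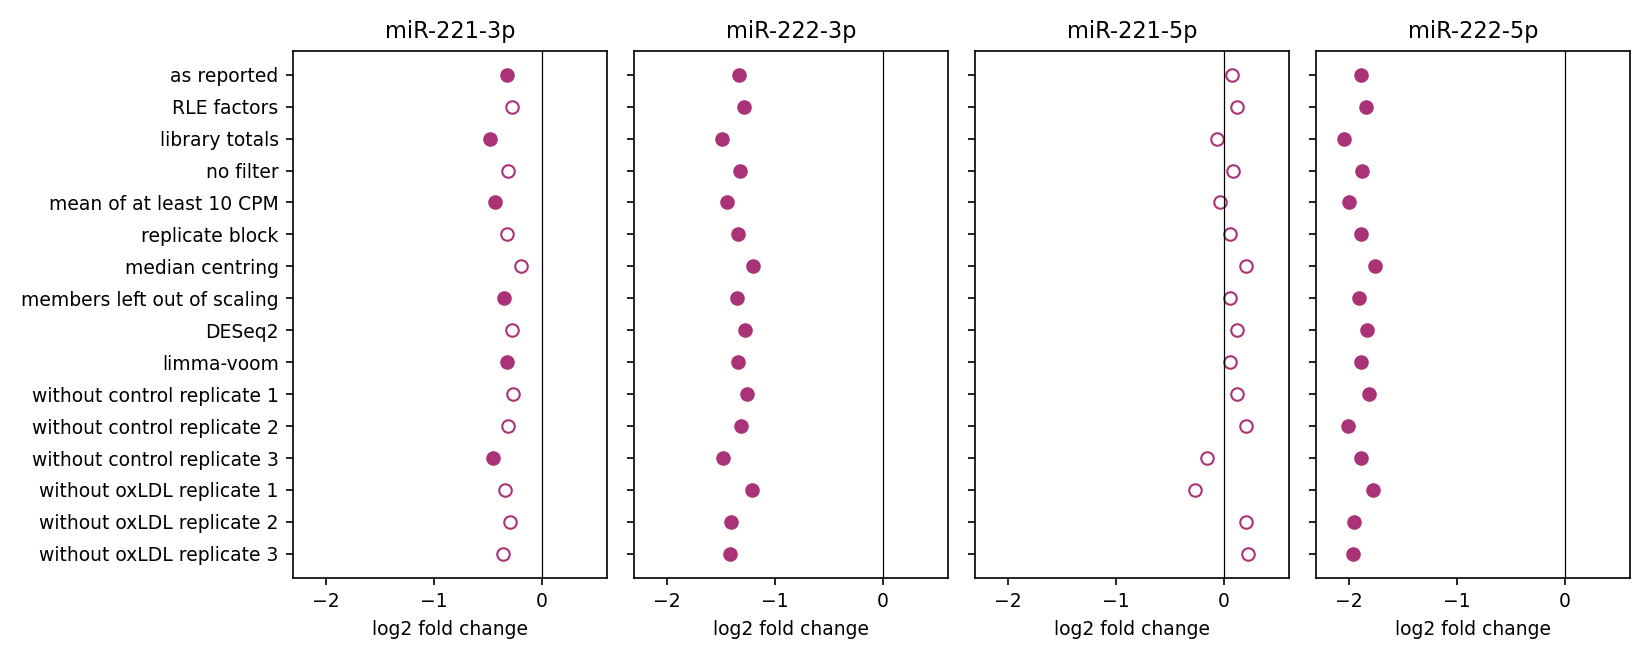
Log2 fold change of each arm, oxLDL over control, as reported and under 15 alternative settings (rows), with filled circles for an adjusted p under 0.05 and open circles otherwise. Values of miR-222-3p (-1.48 to -1.20) and miR-222-5p (-2.04 to -1.75) passed in every row, those of miR-221-3p (-0.48 to -0.20) passed in some, and those of miR-221-5p lie on either side of 0.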

How the data were processed

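Small RNA of 14 to 36 nt was gel-purified, ligated to adaptors, amplified and sequenced, per the labels' protocols. The authors deposited 1 table of estimated counts per mature miRNA, not scaled, on build GRCm38.p5 per the submitters' processing notes. The aligner, counter and miRNA database version are not given in the sources used here. Of 6654 values 117 were not whole (tolerance 1e-06), none of them of miR-221 or miR-222, and all were rounded. Each column was assigned to the sample with its group and number. No library repeated another (chi-square of counts per degree of freedom at least 111 in each pair).

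Groups were compared in R 4.3.3 with edgeR 4.0.16 (quasi-likelihood fit, TMM factors, filterByExpr by group), Benjamini-Hochberg adjustment and a threshold of 0.05. Arm and neighbour ratios were tested with limma (3.58.1) on log2 ratios with a pseudocount of 0.5 reads. Arm ratios used hairpins with a mean of at least 10 reads in each arm, and neighbour ratios used entries that passed the edgeR filter. Ratios and sums for the pair alone used exact permutation tests. Alternatives included DESeq2 (1.42.0). On simulated data the edgeR step, run on 462 entries, called 50 of 71 entries simulated with a change of 2 times, 19 of 48 with a change of 1.5 times and 0 of 269 without a change. The limma arm ratio step, run on 124 hairpins, called 12 of 20 with a change of 2 times. It called 20 of 20 with a change of 4 times and 0 of 84 without a change. All entries were simulated with the same dispersion, the spread beyond counting error.

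The miRNAs named are the 4 arms, entries that share a seed or lie within 50 kb, the 3 most correlated entries per arm, the members of each list (for lists over 8 tested, the 3 with the smallest p and at least 10 CPM), and the 3 largest called arm changes. The members and lists were chosen with earlier results of these data known. Target genes, summed 3p arms, classes by abundance, read shares of other entries and neighbouring pairs were chosen after values were seen. Hairpins were located for 940 of 1109 entries through RefSeq, and 3′ UTRs were read from GENCODE M21. An item of the target list is not reported here.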

Additional observations from a re-analysis of the deposited data

How the results depend on the processing

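The falls of miR-222-3p and miR-222-5p passed in all 15 alternatives, with log2 fold changes of -1.48 to -1.20 and -2.04 to -1.75 (leaving out 1 library, -1.48 to -1.21 and -2.003 to -1.775). The value of miR-221-3p did not pass with RLE factors (-0.28), no filter (-0.32), the replicate block (-0.32), median centring (-0.20) or DESeq2 (-0.27), and leaving out 1 library it ran from -0.45 to -0.27. The value of miR-221-5p turned negative with library totals (-0.063) and a filter at 10 CPM (-0.035), and leaving out 1 library it ran from -0.27 to 0.23. The arm change of miR-222, -0.55, passed with at least 50 reads and with an intensity trend (-0.55 in both), and leaving out 1 library it ran from -0.70 to -0.40; that of miR-221 ran from 0.11 to 0.56. The between-hairpin ratio of 3p arms, 1.02, passed in the limma test over neighbouring pairs (1.02), which was added later, as were median centring, the intensity trend and scaling without the 4 arms. The causes were not tested.

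The count of called entries ran from 161 to 252 against 217, and 161 to 211 leaving out 1 library. The share of calls that were higher was 47.5%, 34.2% with library totals and 59.1% with median centring. The labels do not say that replicate numbers pair the samples, and same-numbered libraries deviated apart (r from -0.30 to -0.12). With the replicate block 178 entries were called. The smallest count of the 4 arms was 369 reads, so counting error was small for all of them.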
